A study of Mus musculus with 15 samples.

Results

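Pulmonary neuroendocrine genes were followed in embryonic mouse lungs as a group of 9 genes, namely Insm1, Nkx2-2, Calca, Chga, Chgb, Resp18, Syp, Uchl1 and Ddc. They were taken by gene symbol from the raw count tables of the study, and all 9 were found among the 23420 genes that each table lists. The study sequenced RNA from wildtype CD1 mouse lungs in 5 groups of 3 libraries each. In the culture experiment, lungs taken at embryonic stage E12.5 were kept ex vivo for 48 hours at low pressure (each library a pool of 6 lungs) or at high pressure (each a pool of 3 lungs). In the stage series, lungs were taken fresh from pregnant mice at E12.5 (pools of 6 lungs), E13.5 or E14.5 (pools of 3 lungs each). Pressure and pool size therefore cannot be told apart, nor can E12.5 and pool size.

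Pulmonary neuroendocrine cells are rare airway epithelial cells that sense stimuli in the lumen and release amines and peptides from dense core granules. They are the first epithelial cells of the lung to differentiate, and they form clusters called neuroepithelial bodies at airway branch points. Notch signalling restrains their fate in neighbouring cells, and Insm1 is needed for their differentiation. Most of the 9 genes are also expressed in neurons and in other endocrine glands, so that in RNA from whole lungs they do not belong to a single cell type. In such bulk RNA, fewer cells of a type and less RNA per cell cannot be told apart.

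The promoters of Chga and Calca are shown because these were the members with the largest fitted differences between pressures. Each is the 250 bases before the start site in RefSeq (GRCm38.p6), read 5′ to 3′ on the strand of the gene, chr12:102554691-102554940 (plus) for Chga and chr7:114636358-114636607 (minus) for Calca. Capitals mark TGACG, the core of the cAMP response element, and CAGCTG, an E-box.
Chga: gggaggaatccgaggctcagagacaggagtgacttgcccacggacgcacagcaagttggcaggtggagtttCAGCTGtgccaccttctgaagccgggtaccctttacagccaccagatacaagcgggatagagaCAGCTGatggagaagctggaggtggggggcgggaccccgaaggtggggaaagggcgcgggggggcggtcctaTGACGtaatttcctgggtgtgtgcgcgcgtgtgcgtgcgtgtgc
Calca: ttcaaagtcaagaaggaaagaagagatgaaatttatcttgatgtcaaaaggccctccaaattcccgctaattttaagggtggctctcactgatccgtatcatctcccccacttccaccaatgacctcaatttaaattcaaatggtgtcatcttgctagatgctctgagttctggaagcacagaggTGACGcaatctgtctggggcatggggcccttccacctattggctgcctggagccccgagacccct
Promoters were matched for 8 of the 9 members (not Insm1). TGACG, searched on both strands, lay in the promoters of 3 of these 8 (Calca, Chga and Chgb) and in 17.8% of 32851 mouse promoters of the same length. CAGCTG, a palindrome, lay in 2 of the 8 (Chga and Resp18) and in 13% of all promoters. The full element TGACGTCA, which contains TGACG, was found in Chgb alone among the 8 and in 1.55% of all promoters. The TGACG match began 44 bases before the start in Chga and 65 bases before it in Calca. These matches describe letters and not binding.

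The libraries held 31843739 to 44341263 counts in the culture experiment and 18837343 to 21955244 in the stage series. Levels are given as CPM (counts scaled to a common library total), computed within each experiment. A total of 3 counts, taken here as the limit that a count of 0 allows, corresponds to 0.0682 to 0.0958 CPM in the cultured and 0.135 to 0.162 CPM in the fresh libraries. The lung epithelial marker Nkx2-1 was present in all 15 libraries at 62.8 to 185 CPM. The third low pressure library stood apart, with 14637 detected genes against 16509 to 16726 in the other cultured libraries. In the stage series replicate 1 stood apart at every stage, with 3.59 to 4.36% of its counts in 84 ribosomal protein genes against 1.77 to 2.24% in replicates 2 and 3. It was also the highest of each stage for the summed epithelial markers. Ribosomal protein genes held 1.93 to 2.20% of the counts at low and 3.06 to 3.36% at high pressure, and the part of this difference in the results was not tested.

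Most of the members were scarce. Per length, as CPM per kilobase of exon (RPKM), Uchl1 was the most abundant in every group, with group means of 13.6 to 19.4 RPKM. Ddc followed at 1.56 to 3.41 RPKM except in low pressure lungs, where Calca was above it (2.11 RPKM for Calca and 1.56 RPKM for Ddc, SD 1.14 and 0.35 RPKM, a gap within the spread). Calca ranged over 0.384 to 2.11 RPKM and Syp over 0.266 to 0.663 RPKM. The means of Chga, Chgb, Insm1, Resp18 and Nkx2-2 were at most 0.630 RPKM in any group. The filter on low counts was passed by 7 members in the culture experiment (not Resp18 and Nkx2-2) and by 5 in the stage series (Insm1, Calca, Syp, Uchl1 and Ddc).

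**Figure D1:**
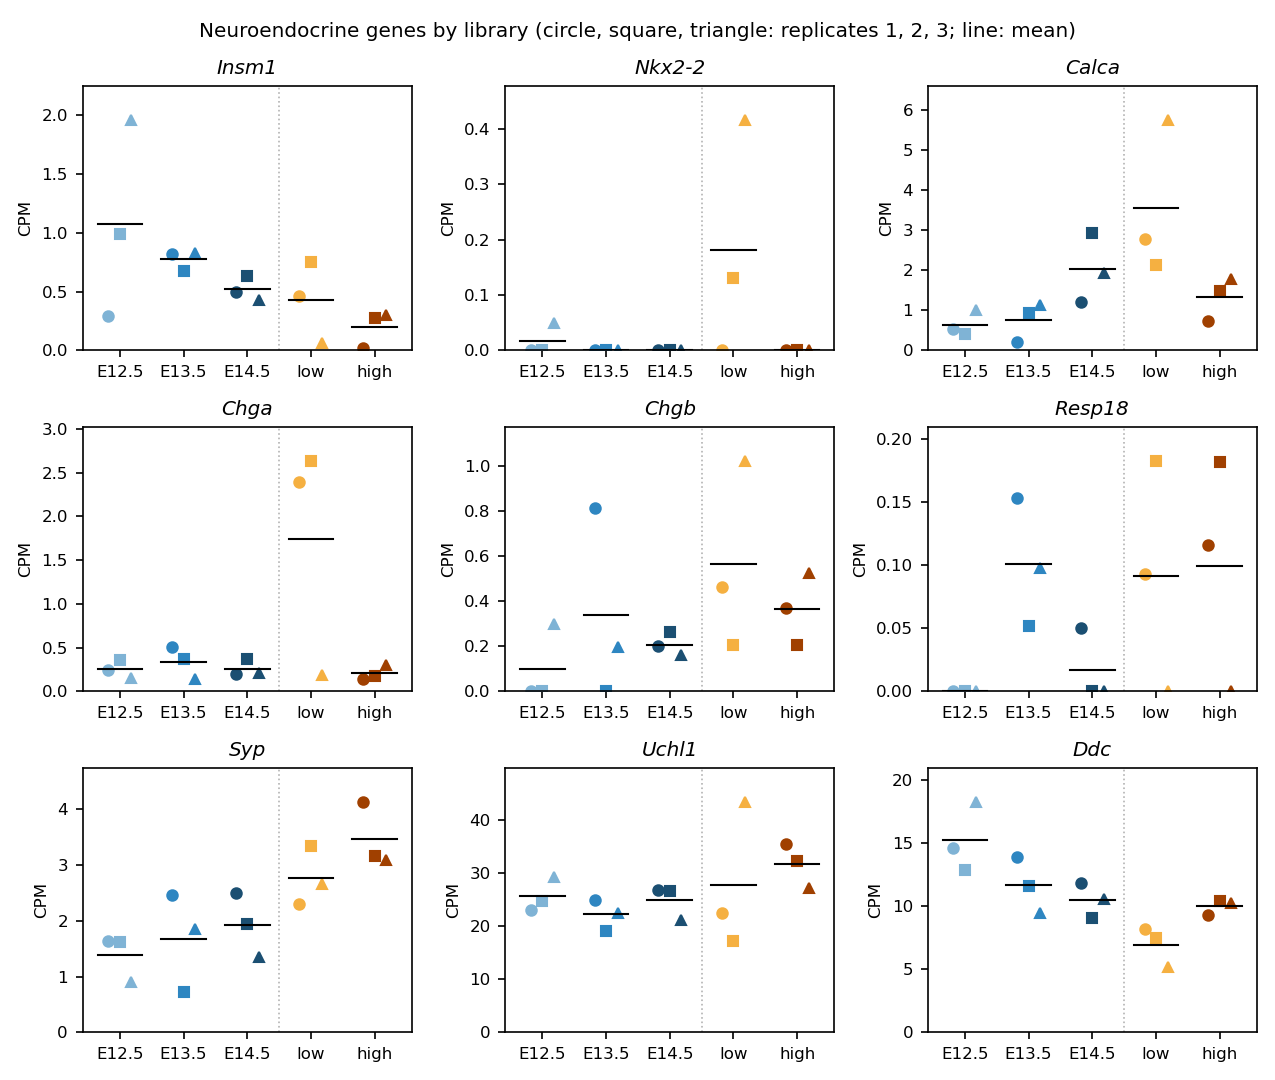
Level of each of the 9 genes (CPM, linear axis from 0) in the 15 libraries, by group, with fresh stages to the left and cultured lungs to the right of the dotted line. Symbols are replicates 1, 2 and 3 and lines are group means. Chga is high in 2 low pressure libraries only, Calca is higher in all 3 low than in all 3 high pressure libraries, and Ddc is lower.

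The first comparison asked how the pressure in the lumen of the cultured lung relates to these genes. Of the 7 members tested, Chga fell at high pressure, none rose and 6 did not pass the test (edgeR quasi-likelihood test, Benjamini-Hochberg adjusted p under 0.05 over 14937 genes). Over all genes tested 26.1% passed, 12.2% lower and 14% higher at high pressure, so a count of 1 in 7 was near the background. The median log2 fold change, high against low pressure, was -0.61 over the 7 members and 0.01 over all genes tested. The median of the members is the value of Chgb alone (SE 0.81), which did not pass. The 7 fitted differences ran from -3.05 (Chga) to 0.52 (Ddc), so the members did not move as a block.

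A pair of transcription factors stood among the members. Insm1, a zinc finger factor required for neuroendocrine differentiation, measured 0.466, 0.755 and 0.0639 CPM at low pressure and 0.0233, 0.273 and 0.301 CPM at high pressure. The groups overlapped, and the third low pressure library lay near the bottom. The log2 fold change of Insm1 was -1.11 (SE 1.11, edgeR adjusted p = 0.497). Nkx2-2, a homeodomain factor of neural and endocrine lineages, had 0, 5 and 13 counts at low pressure and 0 in each high pressure library. Its 18 counts over the low pressure group have an exact 95% Poisson interval of 10.7 to 28.4 (counting error only), and 13 of them came from 1 library. Here the third low pressure library was the highest and the first was at 0, and the gene was below the filter, so it has no test.

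Calca encodes calcitonin and, by alternative splicing, the peptide CGRP, the best known peptide of pulmonary neuroendocrine cells. It measured 2.80, 2.13 and 5.75 CPM at low pressure and 0.744, 1.48 and 1.78 CPM at high pressure. All 3 low pressure libraries were above all 3 high pressure libraries, as in 21.8% of all genes tested. The means were 3.56 ± 1.93 CPM and 1.34 ± 0.53 CPM (SD, n = 3 each), and the log2 fold change of -1.41 (SE 0.49) did not pass the edgeR test at an adjusted p of 0.0646. It passed with DESeq2 (adjusted p = 0.0207), as did 30.2% of all genes that DESeq2 tested. Calcitonin is also made in the thyroid, so thyroid markers are given beside it. Tg (thyroglobulin) measured 0.249, 0.286 and 0.575 CPM at low and 0.0465, 0.136 and 0.151 CPM at high pressure, without overlap. Tshr, the thyrotropin receptor, measured 1.77, 2.16 and 2.49 CPM at low and 0.814, 0.910 and 0.829 CPM at high pressure, also without overlap. Pax8, a factor of thyroid and kidney, measured 0.186, 0.859 and 0.799 CPM at low and 0.163, 0 and 0.201 CPM at high pressure, with overlap. Their part in the level of Calca was not tested.

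The granins are acidic proteins of dense core granules. Chga (chromogranin A, chr12:102554969-102565028 on the plus strand in GENCODE, GRCm38) measured 2.39, 2.63 and 0.192 CPM at low pressure and 0.140, 0.182 and 0.301 CPM at high pressure. Low pressure replicates 1 and 2 were far above the rest, and replicate 3 lay inside the high pressure range, so the groups overlapped. The log2 fold change of Chga was -3.05 (SE 0.94, edgeR adjusted p = 0.0433). The call was lost on leaving out any library other than low pressure replicate 3 (edgeR adjusted p 0.104 to 0.146), while without low pressure replicate 3 the adjusted p was 0.000280. Chgb (chromogranin B) measured 0.466, 0.208 and 1.02 CPM at low and 0.372, 0.205 and 0.528 CPM at high pressure, with overlap (log2 fold change -0.61, SE 0.81, adjusted p = 0.618). Its highest library was low pressure replicate 3, where Chga was low. Resp18, a granule lumen protein of endocrine cells, had 3, 7 and 0 counts at low and 5, 8 and 0 counts at high pressure.

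Chromogranin A is also a secretory protein of the parathyroid gland, and genes of that gland were present in the same 2 libraries. Pth, the parathyroid hormone gene, had 74, 70 and 0 counts in low pressure replicates 1, 2 and 3 and 0 counts in the other 12 libraries. Gcm2, the transcription factor that specifies the parathyroid, had 14, 21 and 0 counts at low pressure, 0 in all high pressure libraries and 1 count among the fresh libraries. Casr, the calcium sensing receptor, had 40, 44 and 7 counts at low and 0, 0 and 3 at high pressure. Foxn1, a factor of the thymus epithelium, had 7, 1 and 0 counts at low pressure and 0 elsewhere. The other thymus genes added with it did not follow. Ccl25 was higher on average at high pressure (DESeq2 log2 fold change 1.07) and Psmb11 nearly level (-0.08), both with overlap. These genes were named after their values were seen. Whether the pools held tissue other than lung, and its part in the level of Chga, was not tested.

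Set beside them, Chga had 77, 101 and 6 counts at low and 6, 8 and 12 at high pressure. Pth had 144 counts over the low pressure group (exact 95% Poisson interval 121 to 170, counting error only). The whole list of 7 thyroid and parathyroid markers summed to 3.87 to 5.85 CPM at low and 1.18 to 1.33 CPM at high pressure, with Gcm2 and Pth at 0 in the latter. In edgeR only Tshr passed the filter on low counts, and it fell at high pressure (log2 fold change -1.33, adjusted p = 0.0398). DESeq2, which called 14.8% of all genes it tested lower, gave an adjusted p for 5 of the 7. It called 2 of them lower, Tshr (adjusted p = 0.00869) and Gcm2 (adjusted p = 0.0248). It also called Casr, of the genes named after their values were seen (adjusted p = 0.000921).

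**Figure D2:**
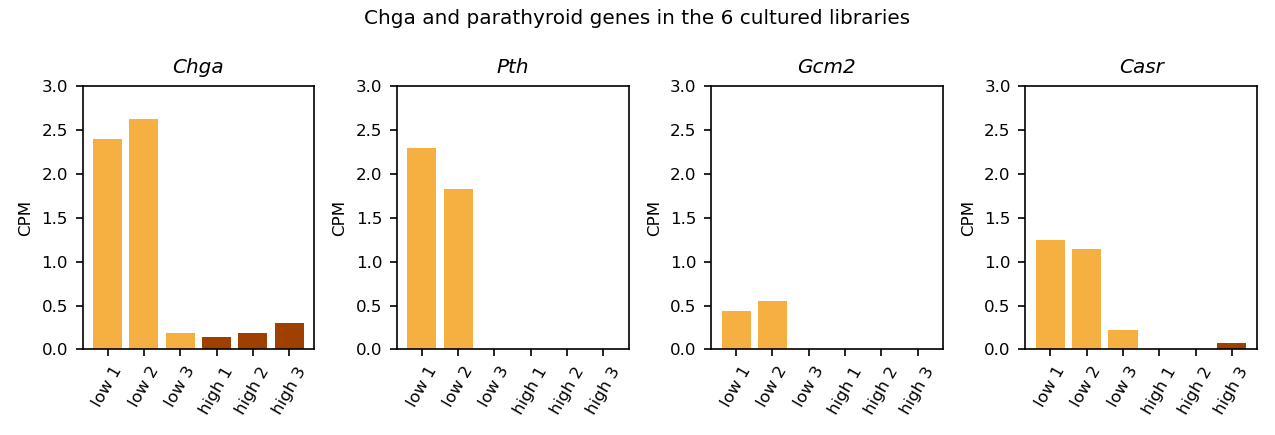
Level (CPM, bars from 0, the same axis in each panel) of Chga and of 3 parathyroid genes in the 6 cultured libraries, 1 bar per library. Low pressure replicates 1 and 2 hold all counts of Pth and Gcm2 and most counts of Chga and Casr.

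Syp, Uchl1 and Ddc were higher on average at high pressure, and none of them passed. Syp (synaptophysin, a protein of small secretory vesicles) measured 2.30, 3.33 and 2.65 CPM at low and 4.12, 3.16 and 3.09 CPM at high pressure (log2 fold change 0.32, adjusted p = 0.431). The groups overlapped. Uchl1, a ubiquitin hydrolase of neurons and neuroendocrine cells also called PGP9.5, measured 22.4, 17.3 and 43.3 CPM at low and 35.6, 32.4 and 27.3 CPM at high pressure. The third low pressure library was the highest of the 6 and the other low pressure libraries were the lowest. Its log2 fold change was 0.20 (edgeR adjusted p = 0.666). It was 0.68 (adjusted p = 0.00418) without low pressure replicate 3. Without low pressure replicates 1 and 2, its lowest libraries, it was -0.44, a value that follows from which libraries were left out.

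Ddc, the decarboxylase that makes serotonin and dopamine, measured 8.17, 7.49 and 5.17 CPM at low and 9.28, 10.4 and 10.2 CPM at high pressure. All 3 high pressure libraries were above all 3 low pressure libraries, as in 25% of all genes tested. The means were 6.95 ± 1.57 CPM and 9.99 ± 0.62 CPM (SD, n = 3 each). The log2 fold change of 0.52 (SE 0.21) did not pass (edgeR adjusted p = 0.0960).

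**Figure D3:**
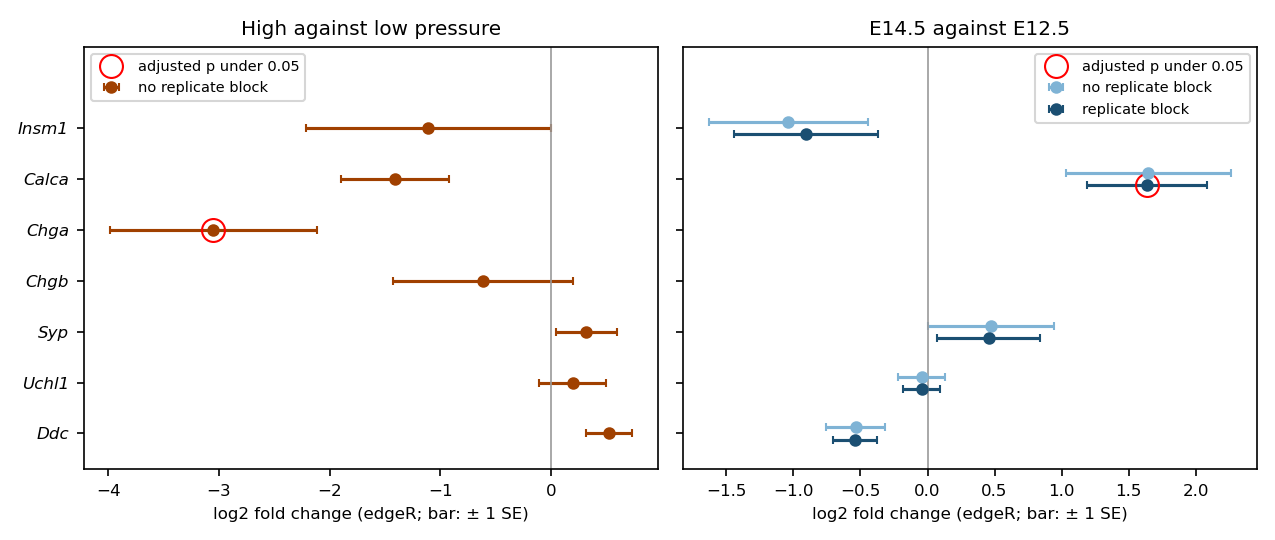
Log2 fold changes of the tested members (points) with 1 standard error to each side, for high against low pressure (left, 7 genes) and E14.5 against E12.5 (right, 5 genes, with and without the replicate block). Red rings mark an adjusted p under 0.05, reached by Chga on the left and by Calca with the block on the right.

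The genes that set or restrain neuroendocrine fate were taken from a list of 12, of which 8 could be tested. At high pressure 2 fell, 2 rose and 4 did not pass, against the background of 12.2% lower and 14% higher. Isl1, a LIM homeodomain factor of endocrine cells that mesenchyme and neurons also express, fell from 22.4, 28.2 and 26.1 CPM to 8.65, 8.89 and 9.75 CPM (log2 fold change -1.49, adjusted p = 0.000608). Rest, a repressor of neuronal genes, fell by 0.44 on the log2 scale (adjusted p = 0.0153). Foxa2 and Foxa1, forkhead factors of the whole lung epithelium, rose by 0.79 (adjusted p = 0.00408) and 0.47 (adjusted p = 0.0190). Neurod1, a late factor of the lineage, had no count in any cultured library.

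Of 13 tested Notch pathway genes, 4 fell, 2 rose and 7 did not pass, against the same background of 12.2% lower and 14% higher. The ligand Jag1 (-0.92, adjusted p = 0.00561), the receptor Notch2 (-0.56, 0.00430) and the target genes Hey1 (-1.18, 0.00358) and Hey2 (-3.26, 0.0477) fell, all as log2 fold changes with adjusted p. Lfng, which modifies Notch receptors, rose by 0.62 (adjusted p = 0.0129), and the ligand Jag2 rose by 0.38 (adjusted p = 0.0408). Vessel cells also use Jag1, Notch2, Hey1 and Hey2. The median over the list was -0.29.

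Of 21 tested genes of dense core granules and exocytosis, 1 fell and none rose, against the 26.1% of all genes tested that passed, and the median log2 fold change was 0.01. The gene that fell was Slc18a2, the vesicular monoamine transporter (log2 fold change -1.97, adjusted p = 0.0478). It measured 2.14, 3.85 and 0.767 CPM at low and 0.721, 0.523 and 0.477 CPM at high pressure. As for Chga, the third low pressure library was close to the high pressure libraries. Pcsk2, a prohormone convertase, measured 1.58, 4.71 and 7.57 CPM at low and 0.233, 0.546 and 2.29 CPM at high pressure and did not pass (adjusted p = 0.0838). None of the 6 tested genes of other peptides passed with edgeR, and none of the 7 that DESeq2 tested did. Grp, which encodes the bombesin-like peptide of these cells, had 0, 11 and 0 counts at low and 13, 22 and 16 at high pressure (adjusted p = 0.289).

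Among 8 tested genes of amine synthesis and breakdown, Maob rose by 0.90 (adjusted p = 0.00576) and Maoa by 0.36 (adjusted p = 0.0193), and none fell, against the background of 12.2% lower and 14% higher. Both encode enzymes that degrade the amines Ddc makes, and both are widely expressed. Among 6 receptor genes for calcitonin and CGRP, 2 fell and none rose, where 12.2% of all genes fell. Calcr, the calcitonin receptor, fell by 1.84 on the log2 scale (adjusted p = 0.0213), from 1.99, 2.32 and 1.76 CPM to 0.628, 0.682 and 0.377 CPM. Calcrl, which forms the CGRP receptor and is abundant in vessels, fell by 1.40 (adjusted p = 0.00130). Of 9 tested surface proteins and channels used to describe neuroendocrine cells, 4 fell and none rose, where 12.2% of all genes fell and 14% rose. They were the stretch-gated channel Piezo2 (-1.39, adjusted p = 0.000393), the guidance receptors Robo2 (-0.77, 0.00535) and Robo1 (-0.68, 0.00358) and the adhesion protein Ncam1 (-0.52, 0.0129), given as log2 fold changes.

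**Figure D4:**
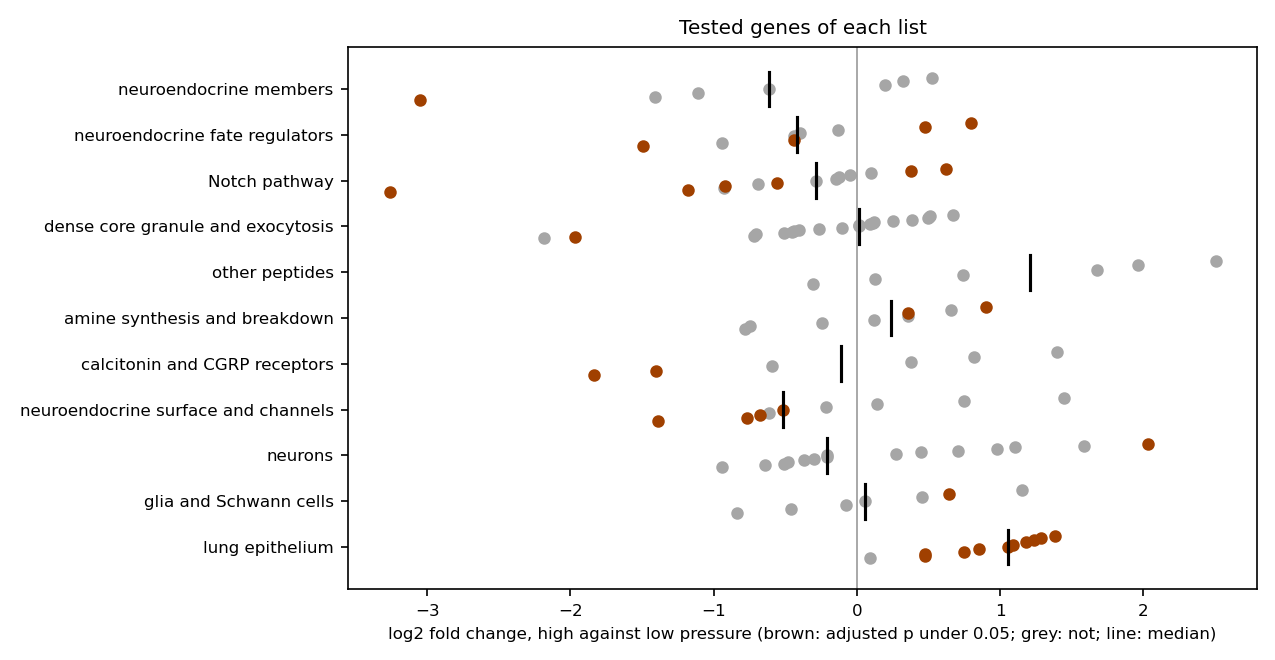
Log2 fold change at high against low pressure of every tested gene, by list (rows). Brown points passed at an adjusted p under 0.05, grey points did not, and black lines are medians, at -0.61 for the 7 neuroendocrine members and 1.06 for the 11 epithelial markers.

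Among these called genes, leaving out any of the 6 libraries in turn kept the calls of Isl1, Foxa2, Notch2, Jag1, Hey1, Maob, Calcrl, Piezo2, Robo1 and Robo2. Of these, Foxa2 (adjusted p = 0.359) and Hey1 (0.0586) were not called in a fit of all 15 libraries. Lfng was lost without high pressure replicate 2, Rest without high pressure replicate 2 or 3, Ncam1 without high pressure replicate 1 or 2, and Maoa without low pressure replicate 2 or high pressure replicate 2 or 3. Foxa1 was lost without replicate 1 or 2 of either pressure. Hey2, Jag2, Slc18a2, Calcr and Tshr were called in only 1 of the 6 omissions, the one without low pressure replicate 3 (adjusted p up to 0.227 in the others).

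Markers of the cells that hold or share these genes moved too. Of 11 markers of lung epithelium, 10 rose at high pressure, where 14% of all genes did, with a median log2 fold change of 1.06. Cdh1 rose by 1.38 (adjusted p = 0.000310) and Nkx2-1 by 1.06 (adjusted p = 0.000405). Their summed level was 820 to 930 CPM at low and 1699 to 1810 CPM at high pressure. The 16 neuronal markers summed to 75.8 to 99.996 CPM at low and 73.3 to 109 CPM at high pressure, and 1 of 15 tested, Prph, rose (log2 fold change 2.03, adjusted p = 0.00231). The 8 glial markers summed to 65.8 to 83.1 CPM at low and 100.4 to 118 CPM at high pressure, and 1 of 7 tested, Erbb3, which epithelium also expresses, rose by 0.64 (adjusted p = 0.00744). Neither neuronal nor glial defining markers were at 0 in any group. The part of these cells in the members' levels was not tested.

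Neuroendocrine cells belong to the epithelium, so levels were also set against the summed epithelial markers, as CPM per 1000 CPM of that sum and with no test. Calca was at 3.04, 2.60 and 6.18 at low and 0.438, 0.816 and 1.03 at high pressure. On this scale the groups were further apart than in CPM. Syp was at 2.502, 4.06 and 2.85 at low and 2.42, 1.75 and 1.78 at high pressure, without overlap, whereas in CPM they overlapped. Uchl1 was at 24.4, 21.1 and 46.6 at low and 20.9, 17.9 and 15.8 at high pressure, so that these groups no longer overlapped either. The gaps were narrow for Syp (2.502 against 2.42) and for Uchl1 (21.1 against 20.9). The share of all genes without overlap on this scale was not counted, so the absence of overlap has no background here. Ddc was at 8.89, 9.14 and 5.56 at low and 5.46, 5.77 and 5.92 at high pressure, where its order between the groups was lost. The scale changes the direction of the means for Syp, Uchl1 and Ddc, whose mean CPM was higher at high pressure. The divisor itself was 820 to 930 CPM at low and 1699 to 1810 CPM at high pressure. Any gene level in CPM is therefore divided by a larger sum at high pressure, which lowers it relative to low pressure on this scale.

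**Figure D5:**
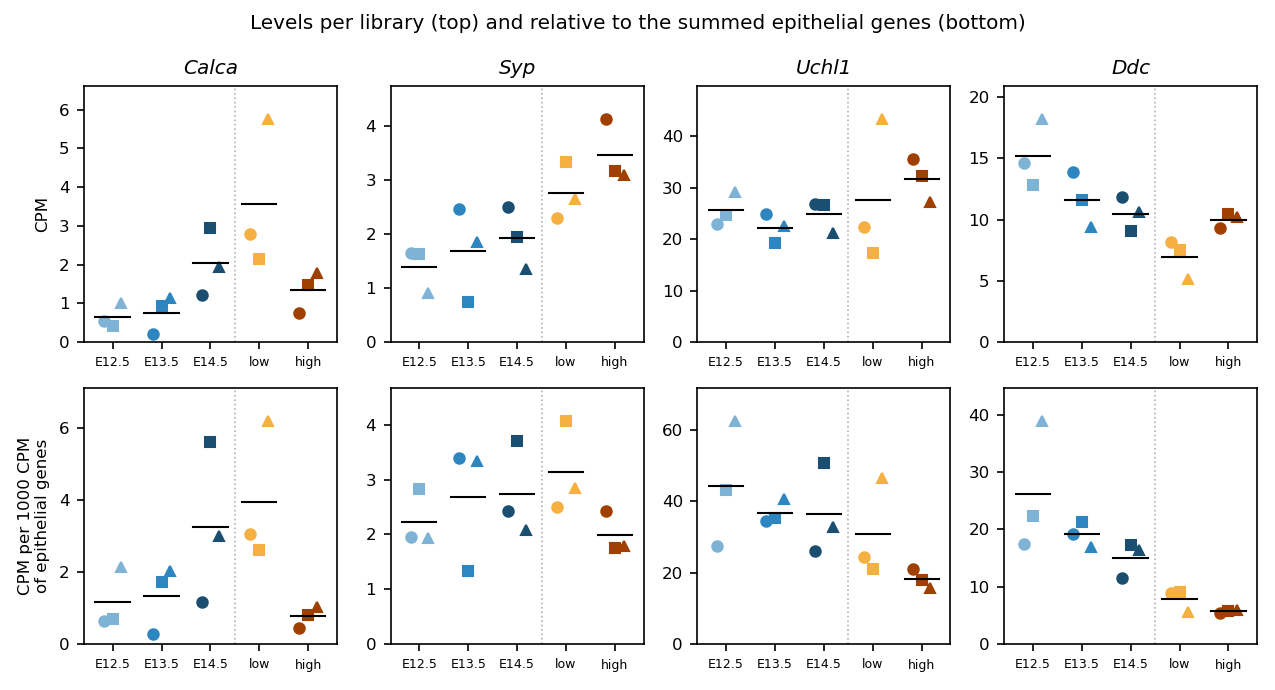
Level of Calca, Syp, Uchl1 and Ddc in each library as CPM (top) and as CPM per 1000 CPM of the 11 summed epithelial markers (bottom), axes from 0, with symbols for replicates and lines for means. For Syp, Uchl1 and Ddc the mean of the high pressure libraries is above that of the low in the top row and below it in the bottom row.

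The second comparison followed the genes through normal development from E12.5 to E14.5. The comparisons of the 3 stages share libraries, so their values are given side by side. Without a block for the replicate number, none of the 14242 genes tested passed between E14.5 and E12.5 with edgeR, while 9.32% (1328 genes) had an unadjusted p under 0.05 and DESeq2 called 457 genes. Same-numbered fresh libraries deviated together, as did replicates 2 and 3 of different number, and with the replicate number as a block 11% of genes passed, 7.33% higher and 3.63% lower at E14.5. Of the 5 members tested, Calca rose with the block, none fell and 4 did not pass.

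Calca measured 0.530, 0.406 and 1.002 CPM at E12.5, 0.204, 0.938 and 1.12 CPM at E13.5, and 1.20, 2.94 and 1.94 CPM at E14.5. All 3 E14.5 libraries were above every earlier library, and such an absence of overlap was seen in 8.76% of all genes tested against E12.5 and in 7.84% against E13.5. Calca was higher at E14.5 in 3 of 3 same-numbered pairs. Its log2 fold change from E12.5 to E14.5 was 1.65 (SE 0.62, edgeR adjusted p = 0.421) without the block and 1.64 (SE 0.45, adjusted p = 0.0389) with it. The blocked call held on leaving out E12.5 replicate 1, E13.5 replicate 1 or E13.5 replicate 3 and was lost on leaving out any of the other 6 libraries (adjusted p over all 9 omissions 0.0277 to 0.216). Using replicates 2 and 3 alone, without the block, gave 1.80 (adjusted p = 0.0402). From E13.5 to E14.5 it was 1.49 with the block (adjusted p = 0.0706), and from E12.5 to E13.5 it was 0.15 (adjusted p = 0.9995). The difference between the steps did not pass (1.34, adjusted p = 0.748).

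Ddc measured 14.6, 12.8 and 18.2 CPM at E12.5, 13.9, 11.6 and 9.43 CPM at E13.5, and 11.8, 9.08 and 10.6 CPM at E14.5. The E14.5 libraries were all below the E12.5 libraries, as in 5.33% of all genes tested, and Ddc was lower in 3 of 3 pairs. Its log2 fold change was -0.53 (adjusted p = 0.481) without and -0.54 (SE 0.16, adjusted p = 0.0558) with the block. Insm1 measured 0.289, 0.993 and 1.95 CPM at E12.5, 0.817, 0.678 and 0.831 CPM at E13.5, and 0.5004, 0.630 and 0.432 CPM at E14.5. It was spread most widely at E12.5, where it overlapped E14.5 (blocked log2 fold change -0.91, adjusted p = 0.297). All E14.5 libraries were below all E13.5 libraries, as in 4.14% of all genes tested, with a blocked log2 fold change of -0.56 (adjusted p = 0.5998) for that step.

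Uchl1 was nearly level over the stages, at 23.0, 24.8 and 29.2 CPM at E12.5, 24.98, 19.2 and 22.6 CPM at E13.5 and 26.8, 26.6 and 21.2 CPM at E14.5. Its blocked log2 fold change from E12.5 to E14.5 was -0.04 (SE 0.14, adjusted p = 0.867). Syp measured 1.64, 1.62 and 0.902 CPM at E12.5, 2.45, 0.730 and 1.86 CPM at E13.5, and 2.502, 1.94 and 1.35 CPM at E14.5 (0.46, adjusted p = 0.478). The groups of both genes overlapped.

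The other 4 members had at most 16 counts in any fresh library. Chga stayed between 0.147 and 0.511 CPM in all 9 libraries, 3 to 10 counts each. Chgb ran from 0 to 0.817 CPM, with 3 libraries at 0. Resp18 had 0 counts in each E12.5 library, 3, 1 and 2 at E13.5, and 1, 0 and 0 at E14.5. Nkx2-2 had a single count in 1 of the 9 libraries. These genes were below the filter on low counts, so edgeR gave no test of the stages for them, and DESeq2 called none. Between E13.5 and E12.5 no member passed (0 of 5) and 0.00702% of all genes did with the block; without it none did with edgeR or DESeq2, and 123 (0.864%) had an unadjusted p under 0.05 with edgeR. Between E14.5 and E13.5 no member passed and 6.01% of all genes did with the block. Without it edgeR called no gene there, 6.86% had an unadjusted p under 0.05 and DESeq2 called 270 genes.

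The other lists were read in the blocked fit of E14.5 against E12.5. Of all genes 7.33% rose and 3.63% fell in that fit. Of 7 tested fate regulators, 1 fell, none rose and 6 did not pass. Isl1 was the gene that fell (log2 fold change -1.01, adjusted p = 0.0347). Of 13 Notch pathway genes, 5 rose and 1 fell. The ligands Dll1 (0.84, adjusted p = 0.0184) and Jag2 (0.78, 0.0171), the receptor Notch1 (0.39, 0.0431) and the target genes Nrarp (0.72, 0.00679) and Heyl (0.51, 0.00995) rose as log2 fold changes, and Notch3 fell by 0.32 (adjusted p = 0.0150).

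Among 18 tested granule genes, Pam rose and Stx1a fell. Pam, the enzyme that amidates peptides such as CGRP, measured 110, 123 and 119 CPM at E12.5 and 309, 946 and 418 CPM at E14.5 (2.13, adjusted p = 0.0386). Its CPM was far above that of any neuroendocrine member, and other cells also express it. Stx1a, a syntaxin of exocytosis, fell by 0.51 (adjusted p = 0.0423). Of 4 other peptides tested, Gal (galanin) fell by 2.78 on the log2 scale (adjusted p = 0.0322). Of 9 surface proteins and channels, Piezo2 rose by 0.65 (adjusted p = 0.00267) and Cd24a fell by 0.33 (adjusted p = 0.0290).

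In single genes of the remaining lists, Maob rose by 0.81 (adjusted p = 0.0233), Ramp2, a partner of Calcrl, by 0.43 (adjusted p = 0.0128) and the neuronal gene Stmn2 by 0.66 (adjusted p = 0.0117). None of the 11 epithelial or the 8 glial markers passed in that fit, at 11% of all genes. The epithelial sum was 469 to 839 CPM at E12.5 and 525 to 1033 CPM at E14.5.

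Across both experiments, with all 15 libraries scaled together and no test, the mean of Calca was 3.56 CPM at low pressure, 2.02 at E14.5, 1.33 at high pressure, 0.768 at E13.5 and 0.6498 at E12.5. Neighbours in this order did not differ beyond the spread of their libraries. Chga averaged 1.73 CPM at low pressure and 0.207 to 0.342 CPM in the other 4 groups, where it did not differ beyond the spread. The low pressure mean rests on replicates 1 and 2 (2.39 and 2.62 CPM), and replicate 3 was at 0.192 CPM, so low pressure overlapped the other groups. Ddc ran in nearly the opposite order to Calca, from 15.3 CPM at E12.5 through 11.7 at E13.5, 10.4 at E14.5 and 9.95 at high pressure to 6.94 at low pressure. Its neighbours overlapped, except that high and low pressure did not.

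Only Ddc and Uchl1 reached the mean of 5 CPM in both experiments at which genes of like pattern were sought. Among 10522 genes, the average of the Pearson correlations over the 6 cultured and over the 9 fresh libraries was highest with Ddc for Zfp7 (0.91), Irak1bp1 (0.90) and Epb4.9 (0.89). With Uchl1 it was highest for Eno3 (0.79), Igbp1 (0.77) and Alg1 (0.73). The part of depth and preparation in these correlations was not tested, and they are descriptions.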

How the data were processed

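RNA from 15 pools of whole embryonic lungs was sequenced. The authors deposited raw counts per gene in 2 tables, 1 for the 6 cultured and 1 for the 9 fresh libraries. Per the submitters' processing notes, the tools included cutadapt (1.6), Bowtie (1.1.1), TopHat, HTSeq and DESeq2, with the mm10 build (GRCm38). For Uchl1, Syp, Resp18 and Nkx2-2, antisense genes overlap their exons, and reads of both cannot be told apart where counting ignored strand. Its strand setting is not given in the sources used here. Other deposited tables were not used.

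The counts of each experiment went into a separate model in edgeR (version 4.0.16, under R 4.3.3), with TMM factors, filterByExpr by group and the robust quasi-likelihood F-test. P-values were Benjamini-Hochberg adjusted over all genes tested, with a threshold of 0.05, and standard errors are the log2 fold change over the square root of F. CPM used TMM-scaled totals, and RPKM the union of GENCODE exons. The script was tested on simulated data. The labels do not say whether pools came from separate litters, so p-values measure the spread between these pools, which may be technical.

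In the stage series every same-numbered pair correlated in its deviations from the group means (0.397 to 0.838 over 9 pairs, against -0.736 to 0.625 over 18 other pairs), so the blocked values are given beside the results. Among replicates 2 and 3 alone, 6 pairs of different number correlated as highly (0.454 to 0.625) as 6 of the same number (0.397 to 0.606), so the values set replicate 1 apart and do not tell replicate 2 from 3. The source of the pairing is these data and not the labels. Alternatives were DESeq2 1.42.0, RLE factors, no filter, the block, all 15 libraries together, a term for replicate 1, and leaving out libraries. Leaving out low pressure replicates 1 and 2 together, and the block with each library left out, were added after seeing the data.

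The 9 members and 12 lists were chosen with earlier results of these data known. The list of fate regulators is given without 1 gene that is not reported here. All members are named. Of each other list the text names genes past the threshold and up to 4 with the smallest p. The added genes Pth, Gcm2, Casr, Foxn1, Ccl25 and Psmb11 were chosen after seeing the data, and of these only Ccl25 passed the edgeR filter under pressure (adjusted p = 0.341). DESeq2 gave an adjusted p for 5 of the 6 and called Casr and Gcm2 lower at high pressure, as it did 14.8% of all genes tested.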

Additional observations from a re-analysis of the deposited data

How the results depend on the processing

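Chga kept its direction in each single-library omission (log2 fold change -3.58 to -2.62) and turned to 0.12 without low pressure replicates 1 and 2 together, where Insm1 was 1.598 and Uchl1 -0.44. For Chga and Uchl1 this follows from which libraries were removed, and the fit takes the lone low pressure library to vary like the other group. Leaving out a library gave 0 to 2 members called at high against low pressure and 1894 to 6257 genes. DESeq2 called 2 members, the replicate block 0, and the omission of low pressure replicates 1 and 2 called 3 (Calca, Ddc and Uchl1) and 6453 genes. A fit of all 15 libraries called 1121 genes, and Foxa2, Foxa1, Jag2, Lfng, Hey1, Maoa, Ncam1, Slc18a2 and Tshr were not among them. Same-numbered cultured libraries share only a number (correlations -0.0124 to 0.0461). The block moved the count of genes from 3905 to 3137 and left Chga at an adjusted p of 0.147. Under single omissions Chgb ran from -1.01 to 0.14 and Uchl1 from -0.048 to 0.68. The cause was not tested.

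For E14.5 against E12.5 the replicate block called 1 member and 1561 genes, a term for replicate 1 called 1 and 1592, DESeq2 457 genes and no filter 9 genes. Omissions gave 0 to 1 members and 0 to 1119 genes without the block, and 0 to 2 members and 435 to 1977 genes with it. For E14.5 against E13.5 the block called 856 genes, the replicate 1 term 808 and DESeq2 270. Omissions gave 0 to 62 genes, or 77 to 1296 with the block. For E13.5 against E12.5 the block and the replicate 1 term each called 1 gene, and omissions with the block 0 to 41. For the difference of the 2 steps the block called 3, the replicate 1 term 2 and DESeq2 4 genes, and omissions 0 to 1, or 0 to 31 with the block. The block changed no call of a member other than Calca in the stage series.

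Directions that turned on omission of a fresh library belonged to differences that did not pass. From E12.5 to E13.5 the ranges, without and with the block, were -0.95 to 0.26 and -0.90 to 0.37 for Insm1, -0.17 to 0.69 and -0.37 to 0.46 for Calca, and -0.10 to 0.63 and -0.13 to 0.73 for Syp. From E13.5 to E14.5 they were -0.16 to 0.57 and -0.26 to 0.59 for Syp, and from E12.5 to E14.5 -0.17 to 0.058 and -0.19 to 0.12 for Uchl1. Depth limits Chga, Chgb, Resp18 and Nkx2-2 most, at 0 to 16 counts per fresh library.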

Other observations

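A pair of granule genes was chosen after their values were seen and is given with no test. Both had more raw counts in every cultured than in any fresh library. The cultured libraries were deeper, and these counts are not scaled for depth. In CPM, Pcsk2 in high pressure replicate 1 was not above every fresh library. The list these genes come from is not described by them. Pcsk2, the convertase that processes peptide precursors, had 51, 181 and 237 counts at low pressure and 10, 24 and 91 at high pressure, and 1 to 6 counts in each fresh library. Scg2 (secretogranin II) had 33, 83 and 57 counts at low and 14, 14 and 97 at high pressure and at most 3 in each fresh library. Cartpt, which encodes a peptide of neurons and endocrine cells, had 3, 11 and 0 counts at low and 42, 37 and 18 at high pressure. These did not overlap, and in CPM 25% of all genes tested were higher at high pressure without overlap. Cartpt did not pass (edgeR adjusted p = 0.106). Pax8, a thyroid marker, had 6, 33 and 25 counts at low pressure, 7, 0 and 8 at high pressure and at most 1 in each fresh library.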
